A study of Mus musculus with 2 samples.

Results

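Mediator, RNA polymerase II and TFIID carry out and regulate the start of transcription of protein-coding genes, and the genes of their subunits were described in the forebrain of mouse embryos. Members were chosen by a rule on gene symbols. They were the protein-coding genes of the GENCODE M21 table whose symbols begin with Med and a number, are Polr2a to Polr2m, or are Taf with a number and at most 1 letter, plus Tbp. These came to 67 genes of 22028 protein-coding genes and 55536 genes in all. By known role they fell into 30 Mediator subunits, 13 RNA polymerase II genes, 17 TFIID genes including 3 paralogues, and 7 other Taf-named genes. Those 7 encode SAGA subunits (Taf5l and Taf6l), the SL1 factor of RNA polymerase I (Taf1a, Taf1b, Taf1c and Taf1d) and an RNA-binding protein of the FET family (Taf15), so the label TFIID was kept for the 17 alone.

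PolyA RNA was sequenced from whole forebrain at embryonic day 12.5, strain B6NCrl, mixed sex, with no treatment named, in 2 libraries. Pool 1 combined 120 embryos, pool 2 combined 68, and 10 ng of RNA went into each library, so each value is a mean over animals and cell types. The labels give both pools the same donor entry and call them biological replicates, so the spread between them may be partly technical. There is 1 group and no contrast. An exact two-sided sign-flip test over 2 pools cannot go below p = 0.5, so levels are given with their spread and no test was run.

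RNA polymerase II is the enzyme that copies protein-coding genes, and its largest subunit carries a long repeated tail that is phosphorylated as transcription proceeds. TFIID, made of the TATA-binding protein TBP and its associated factors, recognises the promoter and seeds the assembly of the other general factors. Mediator bridges transcription factors bound at enhancers and the polymerase, and is built of a head, a middle, a tail and a dissociable kinase module.

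Gene counts, estimated reads assigned to genes, came to 33373843 in pool 1 and 34406648 in pool 2. The 67 genes held 149094 and 151652 of them (0.447% and 0.441%), with a median of 1744 counts per gene in pool 1 and 1864 in pool 2. All 8 forebrain markers examined were detected, with a median of 86.1 TPM, against 1 of 8 markers of midbrain and hindbrain (Gata3, 2.51 TPM in pool 1 and 8.50 in pool 2). TPM is a transcript level per length, scaled to the same total in each library. Summed markers of other tissues were lower in pool 1 than in pool 2. The summed level of 11 erythroid genes was 11859 TPM in pool 1 and 15894 in pool 2, and that of 10 genes of mesenchyme and meninges was 680 and 824 TPM. The lowest of each list were Gata1 (0.76 and 0.68 TPM) and Foxd1 (2.02 and 3.28 TPM), and none was at 0 in both pools. By normalised counts, none of the 10 detected erythroid genes and none of the 10 genes of mesenchyme and meninges was higher in pool 1.

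Nearly the whole set was expressed. A TPM of at least 1 in both pools was reached by 65 of 67 genes, against 58.9% of all protein-coding genes. The exceptions were the paralogues Taf4b and Taf7l. The median of the mean TPM was 44.6 over the 67 genes, against 4.08 over all protein-coding genes and 21.9 over the detected ones. Of the 67, 50 lay above that median of detected genes and 11 lay above their 90th percentile. Levels spread less among the detected genes of the set than among detected genes at large, with an SD of log2 TPM of 1.39 against 2.07. The 3 complexes lay apart, with medians of 128 TPM for RNA polymerase II, 43.9 TPM for Mediator and 22.6 TPM for TFIID. Without the 3 paralogues the TFIID median was 33.6 TPM, nearer to that of Mediator. Levels were lower for longer genes, as given further on, and the part of length in the order of the complexes was not tested. In bulk RNA, a level set by few cells and one set by little RNA in each cell cannot be told apart.

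**Figure D1:**
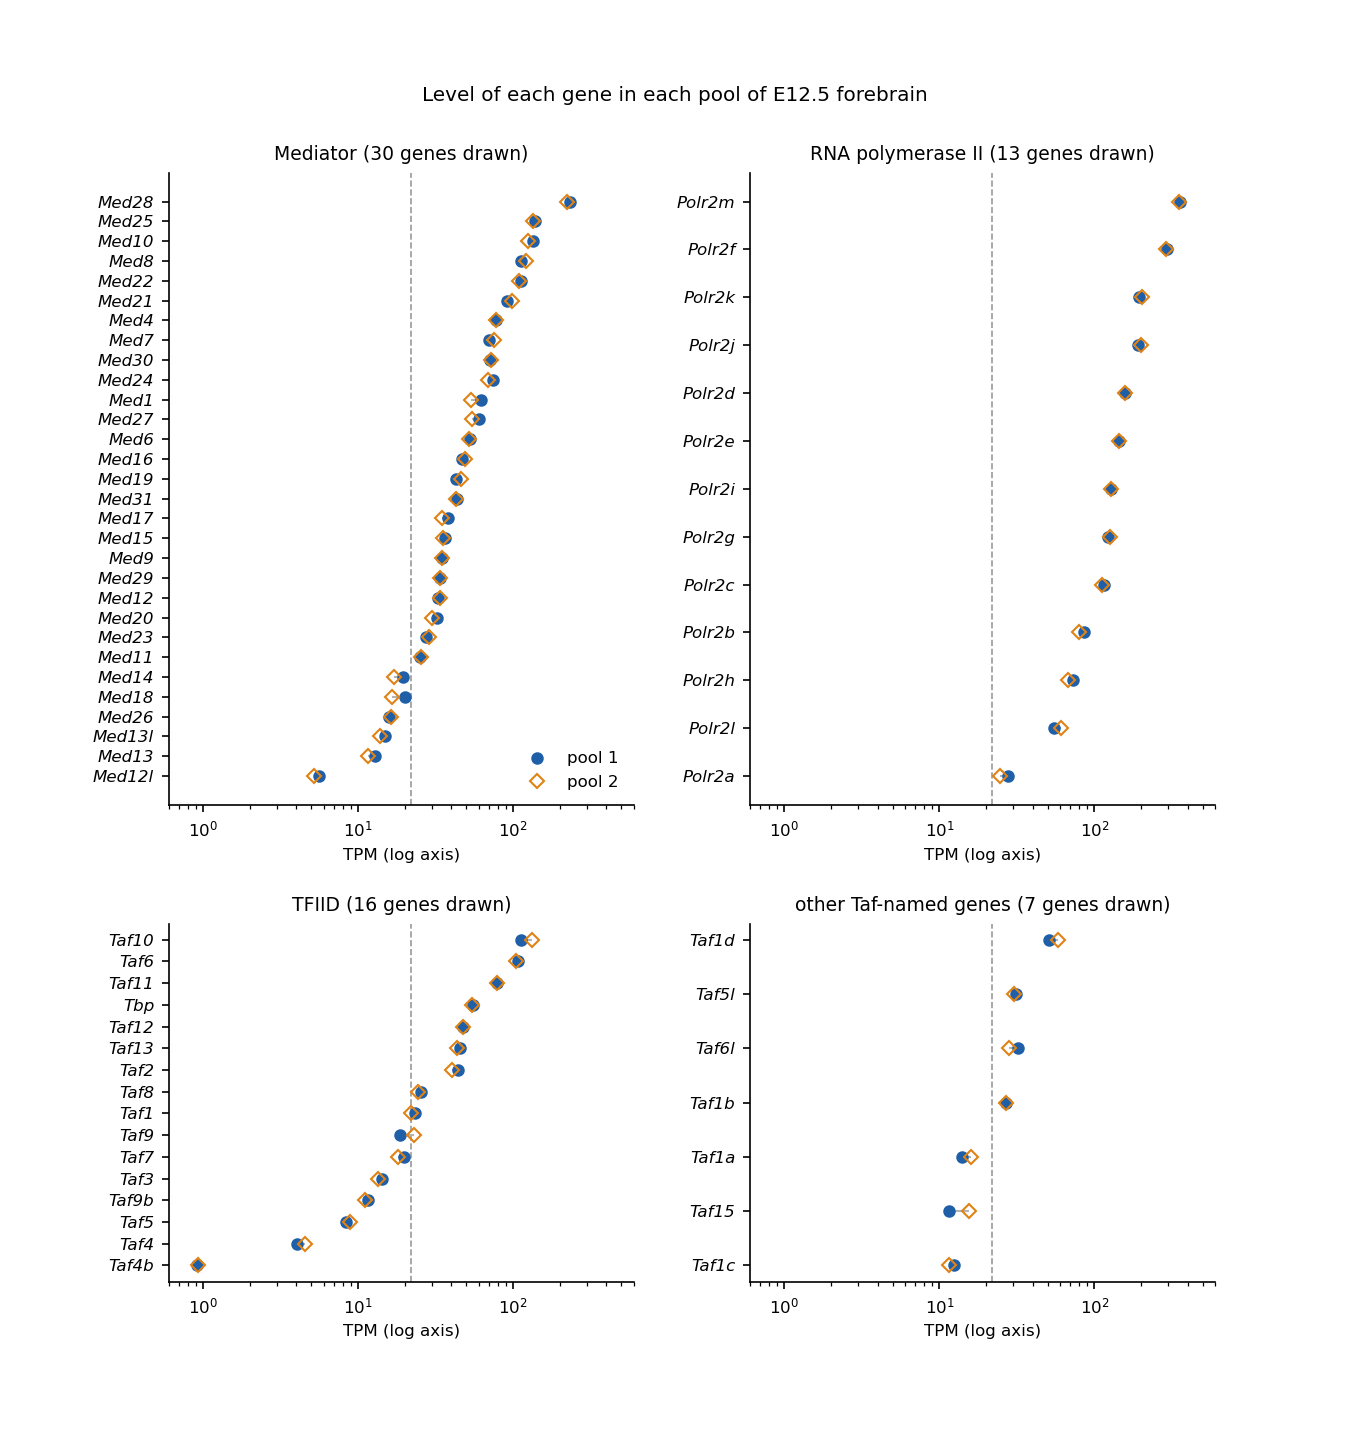
TPM (x axis, log) of each gene (y axis) in pool 1 (filled circles) and pool 2 (open diamonds), by complex; grey lines join the pools and the dashed line marks the median of detected protein-coding genes, 21.9 TPM. Taf7l, at 0 and 0.02 TPM, is not drawn. The pools lie close together for every gene drawn, and the RNA polymerase II genes all lie to the right of the dashed line.

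The RNA polymerase II genes were the highest of the 3 complexes, and in the M21 tables the gene of the catalytic largest subunit was the lowest among them. Polr2a (ENSMUSG00000005198.15, chr11:69733997-69758637, minus strand, GRCm38) had 27.6 TPM in pool 1 and 24.5 in pool 2, or 26.1 ± 2.2 (SD, n = 2). Its main transcript, of 6740 bases, was also the longest main transcript of the complex, and levels were lower for longer genes. Polr2b, the second-largest subunit and the other wall of the active site, had 85.3 TPM in pool 1 and 80.0 in pool 2, which is 3.09-fold and 3.26-fold the level of Polr2a. Every other gene of the complex also exceeded Polr2a in both pools with M21. With the older M4 annotation Polr2l had 28.4 TPM in pool 1 and 32.6 in pool 2, against 29.1 and 25.9 TPM for Polr2a, so the order of this pair turned in pool 1. In M21 the excess ran from 1.97-fold and 2.50-fold for Polr2l to 12.9-fold and 14.4-fold for Polr2m.

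Among the subunits particular to RNA polymerase II, Polr2d and Polr2g encode the stalk, a pair that can leave the enzyme in yeast. Polr2d had 157 TPM in pool 1 and 158 in pool 2, and Polr2g 123 and 126 TPM. Polr2c and Polr2j encode the pair on which the enzyme assembles, and stood at 114 ± 1.6 and 196 ± 6.2 TPM (SD, n = 2). Polr2i, known in yeast for a part in fidelity, had 128 TPM in each pool. The stalk and assembly partners were therefore not at equal levels, and the gap within each pair was larger than the spread between the pools.

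The 5 subunits shared with RNA polymerases I and III had a median of 143 TPM in pool 1 and 144 in pool 2, against 123 and 126 TPM for the 7 subunits particular to RNA polymerase II. Polr2f had 293 and 288 TPM, Polr2k 195 and 201 TPM, and Polr2e 143 and 144 TPM. Polr2h had 73.3 TPM in pool 1 and 67.1 in pool 2, and Polr2l 54.5 and 61.4 TPM. The shared group thus spanned both the high and the low end of the enzyme, and its range contained the range of 6 of the 7 particular subunits, Polr2a being the exception. Of subunits found only in the other polymerases, 6 of RNA polymerase I had a median of 31.4 TPM and 11 of RNA polymerase III a median of 31.6 TPM, all detected. Polr1c and Polr1d, which RNA polymerases I and III share, stood at 77.3 ± 3.2 and 76.8 ± 1.7 TPM (SD, n = 2).

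Polr2m was the highest of all 67 genes, at 357 TPM in pool 1 and 354 in pool 2. These levels lay just above its deposited upper bounds, 352.8 TPM in pool 1 and 349.9 in pool 2. Polr2m encodes Gdown1, a protein that binds the polymerase and is known to make its activity depend on Mediator. The gene lies at chr9:71478437-71485935 on the minus strand (ENSMUSG00000032199.13), and its transcript Polr2m-201 carried 98.9% of its TPM. Without Polr2m the median of the complex was 126 TPM.

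Mediator was expressed throughout, with all 30 genes detected from 5.38 TPM (Med12l) to 227 TPM (Med28). The highest were Med28 (231 TPM in pool 1 and 224 in pool 2), Med25 (139 and 135 TPM), Med10 (135 and 125 TPM), Med8 (112 and 120 TPM) and Med22 (112 and 109 TPM). These genes belong to the upper tail, the tail, the middle and the head, so no single module held the high levels. Med28 held the first rank only with its non-coding transcripts counted. Over coding transcripts alone it had 101 TPM in pool 1 and 99.6 in pool 2, below Med10, Med25, Med22 and Med8 in mean level, with Med10 highest at 125 and 119 TPM. Med25 binds activation domains of transcription factors.

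By module, the median of the mean TPM was 36.6 for the 7 head genes, 58.0 for the 9 middle genes, 47.8 for the 5 tail genes and 64.3 for the 4 upper tail genes. In the head, Med17, the subunit around which it is built, had 38.3 and 34.9 TPM, and Med18 was lowest at 19.9 and 16.5 TPM. In the middle, Med1, the docking subunit of nuclear receptors, had 62.3 TPM in pool 1 and 53.8 in pool 2. Med26, which contacts elongation factors, was the lowest of the middle at 15.8 and 16.3 TPM. Med14, the scaffold that holds head, middle and tail together, had 19.4 and 17.1 TPM. Of the tail, Med23, a target of growth-factor signalling, had 27.4 and 28.8 TPM, and Med15, known for binding the regulators of sterol synthesis, 36.4 and 35.3 TPM.

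The Med-named genes of the kinase module had the lowest median among the parts of Mediator. These 4 genes, Med12, Med13 and a paralogue of each, had a median of 13.8 TPM in pool 1 and 12.7 in pool 2. The other 26 had 49.7 and 50.4 TPM, a ratio of 0.278 in pool 1 and 0.252 in pool 2. Med12 (ENSMUSG00000079487.11, chrX:101274030-101297465, plus strand), which activates the kinase, had 32.8 and 33.8 TPM. With all transcripts counted, this was above some genes outside the module, such as Med14 at 19.4 and 17.1 TPM. Med13, which ties the module to the core, had 12.8 and 11.6 TPM, its paralogue Med13l 14.9 and 13.8 TPM, and Med12l 5.59 and 5.17 TPM. The kinase partners, which carry no Med name and are not in that median, were all detected. Cyclin C (Ccnc) had 52.4 and 49.9 TPM, near the median of the other 26 genes. The kinase Cdk8 had 22.1 and 26.1 TPM, and its paralogue Cdk19 10.1 and 9.79 TPM. Med13, Med13l and Med12l are among the longest of the set, and levels were lower for longer genes, as given further on.

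In TFIID, Tbp (ENSMUSG00000014767.17, chr17:15499888-15528379, plus strand), the subunit that bends the TATA box, had 55.03 TPM in pool 1 and 54.7 in pool 2. The gene Pdcd2, at 42.8 and 51.0 TPM, overlaps it on the opposite strand and shares 2582 of its 13576 exonic bases, which makes the level of Tbp uncertain if strand was not used in counting. Of the relatives of Tbp, Tbpl1, the TBP-like factor, was higher than Tbp at 92.1 and 95.3 TPM. The gonadal form Tbpl2 was listed at 0 in both pools. Btaf1, which removes TBP from DNA, had 15.8 and 16.4 TPM.

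The 13 core Taf genes ranged from 4.32 TPM (Taf4) to 123 TPM (Taf10), with a median of 25.0 TPM. Taf1, the largest subunit, which reads acetylated histones, had 23.1 and 22.1 TPM. Taf2, which contacts the initiator, had 44.4 and 40.3 TPM, and Taf3, which reads methylated histone H3, had 14.4 and 13.5 TPM. Taf7, a partner of Taf1, had 19.7 and 18.0 TPM, and Taf5, a scaffold with WD40 repeats, 8.31 and 8.90 TPM.

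Several Taf proteins pair through histone folds, and the genes of a pair were mostly unequal. Taf6 had 107 and 104 TPM, and its partner Taf9 18.75 and 22.98 TPM, a level that the overlapping gene Ak6 makes uncertain. Taf12 had 47.8 TPM in each pool, and its partner Taf4 4.06 and 4.57 TPM. Taf10 had 113 and 133 TPM, and its partners Taf8 25.6 and 24.3 TPM and Taf3 the lower levels above. Taf11 had 78.8 and 78.7 TPM and Taf13 45.7 and 43.6 TPM. In each pair the ranges of the pools did not overlap. These levels count every annotated transcript, coding or not. Over coding transcripts alone Taf10 had 7.61 TPM in pool 1 and 8.52 in pool 2, below Taf8 (17.5 and 19.0 TPM) and Taf3 (14.3 and 13.5 TPM), so the direction of that pairing turned. Taf13 had 4.65 and 3.72 TPM on coding transcripts and remained below Taf11 at 53.3 and 51.6 TPM.

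The 7 other Taf-named genes ranged from 12.0 to 54.8 TPM. Of the SL1 subunits, which start transcription of ribosomal RNA genes, Taf1d had 51.0 and 58.6 TPM, Taf1b 27.0 TPM in each pool, Taf1a 14.0 and 15.9 TPM, and Taf1c 12.4 and 11.5 TPM. Taf15 had 11.5 TPM in pool 1 and 15.6 in pool 2, a CV of 21.8%, the largest among the 65 detected genes.

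The other machinery around these complexes, taken from lists chosen with earlier results known, was detected as widely. Of 18 genes of the general transcription factors TFIIA, TFIIB, TFIIE, TFIIF and TFIIH, 17 were detected, with a median of 51.4 TPM. The highest were Gtf2a2 (162 ± 4.5 TPM), Gtf2h5 (133 ± 0.92 TPM) and Gtf2e2 (98.7 ± 5.1 TPM; SD, n = 2 each), and Gtf2a1l was not detected at 0.06 and 0.07 TPM. All 22 pausing and elongation genes were detected, with a median of 60.2 TPM, from Ell2 at 1.83 and 2.49 TPM to Nelfcd, a subunit of the pausing factor NELF, at 130 and 120 TPM. All 14 further SAGA genes were detected, with a median of 43.0 TPM, and the highest was Eny2 at 285 and 270 TPM. The 5 assembly factors of the polymerase had a median of 33.1 TPM, with the GTPase Gpn1 highest at 61.7 ± 0.47 TPM (SD, n = 2).

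The set holds 7 pairs of a paralogue and its partner, and in 5 of them the paralogue was the lower one. Ratios were taken within each pool as log2 of TPM + 0.1, paralogue over partner, which understates the difference for low genes. Med12l was lower than Med12, at -2.61 ± 0.11 (SD, n = 2), and at -1.65 over coding transcripts alone. Taf4b, a subunit known from ovary and testis, had 0.91 TPM in pool 1 and 0.93 in pool 2, and stood at -2.11 ± 0.10 against Taf4. Taf6l of SAGA was lower than Taf6 of TFIID, at -1.80 ± 0.12, whereas Taf5l of SAGA was higher than Taf5 of TFIID, at 1.82 ± 0.09. In these 4 pairs the distance from equality was many times the spread between the pools.

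Taf7l, a subunit known from male germ cells, was represented by no count in pool 1 and 1 count in pool 2. Its deposited upper bound was 0.335 TPM in pool 1 and 0.353 in pool 2. The deposited lower bounds of Taf7 were 18.0 and 16.5 TPM. Med13l was higher than Med13 by 0.23 ± 0.02, and this direction turned with the annotation. In the older M4 tables the ratio was -0.053, and over coding transcripts alone 0.08. Taf9b was lower than Taf9, at -0.87 ± 0.25. Taf9 shares its locus and strand with Ak6, an adenylate kinase gene at 244 and 247 TPM, and 1120 of 1230 bases of Taf9-201 match it at 100% identity. Reads of Taf9 and Ak6 cannot be told apart over those bases, and the level of Taf9 is uncertain.

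**Figure D2:**
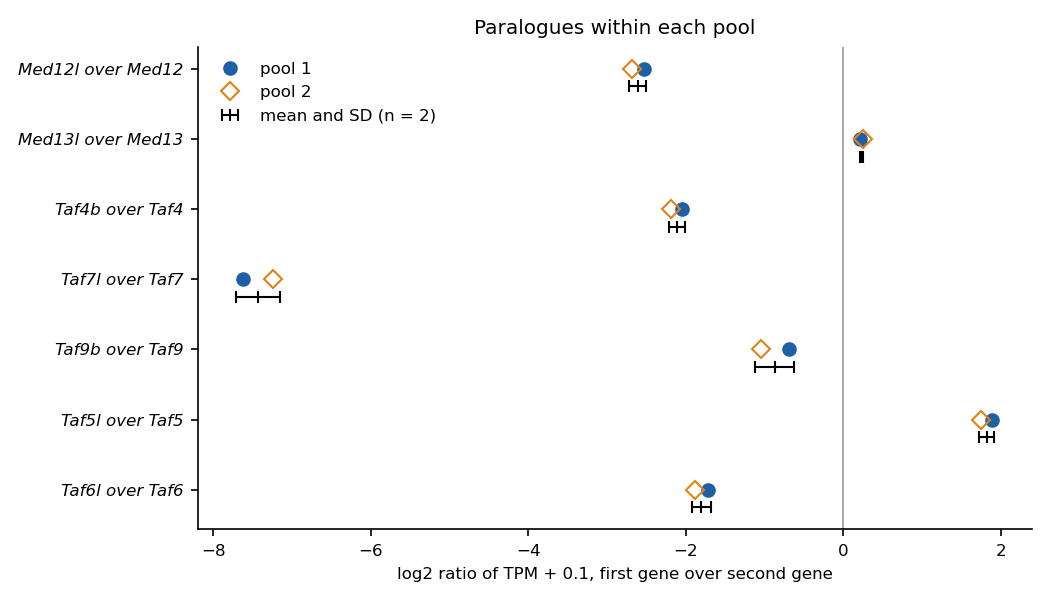
Log2 ratio of TPM + 0.1 (x axis), paralogue over partner, for 7 pairs (y axis) in pool 1 (filled circles) and pool 2 (open diamonds); bars below the points give the mean and SD over n = 2 pools. Both pools lie on the same side of 0 in every pair, with Med13l over Med13 nearest to 0 at 0.23, and the position of Taf7l over Taf7 depends on the added 0.1.

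The levels above sum all annotated transcripts, and for some genes much of the sum came from transcripts annotated as non-coding. Among the 65 detected genes the median coding share of TPM was 93.8%, against 91.2% over all detected protein-coding genes, and the highest transcript was non-coding in 6, against 8.88% of detected protein-coding genes. A coding share under 50% was found in 8 genes (12.31%), against 10.64% at large, and one of at least 90% in 37 genes (56.92%), against 52.44%. These shares lie near those of other genes, and of the 6 genes 5 carry a Taf name, the other being Med28.

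Taf10 (ENSMUSG00000043866.11, chr7:105739393-105744361, minus strand) carried 93.4% of its TPM on transcripts annotated with a retained intron, led by Taf10-202 with 52.2%. Its coding share was 6.56% of TPM and 36.0% of counts. The gene Ilk, at 144 and 147 TPM, lies on the opposite strand over 3533 bases of Taf10. Use of strand in the authors' counting is not given in the sources used here, and 2106 of the 4584 exonic bases of Taf10 are also exonic in Ilk. If strand was not used, reads from those bases could come from either gene.

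Taf13 carried 78.6% of its TPM on the processed transcript Taf13-201 and 9.38% on coding transcripts. Taf15 carried 59.9% on the processed transcript Taf15-204, Taf1b 53.1% on Taf1b-202 and Taf1 34.6% on Taf1-205, both annotated for nonsense-mediated decay, and Med28 55.3% on the processed transcript Med28-201. In Taf1 the order differed between the pools. Coding Taf1-202 had 8.02 and 5.66 TPM, and Taf1-205 had 7.46 and 8.19 TPM. Med12 was coding for 49.7% of TPM but 88.2% of counts, since short non-coding transcripts weigh more per read on a scale per length. Polr2f carried 39.99% on the decay-annotated Polr2f-203, a transcript of 414 bases. Counted on coding transcripts alone, the medians of the complexes were 117 TPM for RNA polymerase II, 40.4 TPM for Mediator and 13.9 TPM for TFIID, in the same order as with all transcripts.

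**Figure D3:**
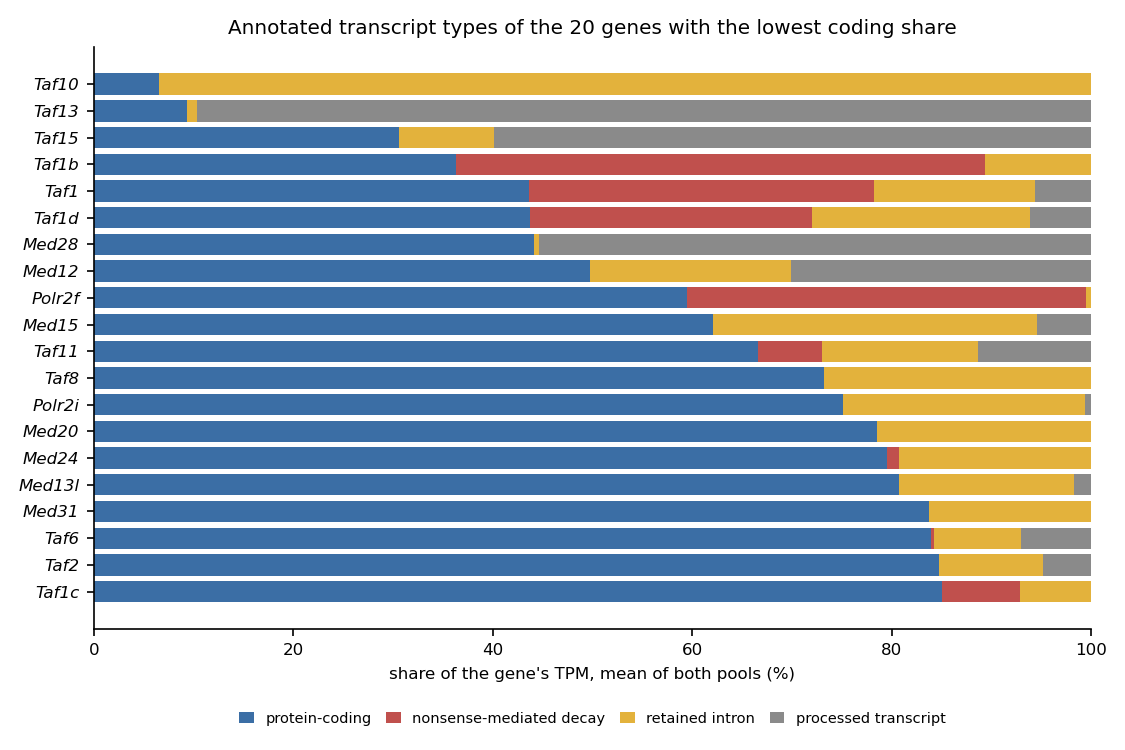
Share of TPM (x axis, percent, mean of both pools) by annotated transcript type for the 20 detected genes with the lowest coding share (y axis). Taf10 is nearly all retained intron, Taf13 and Taf15 are mostly processed transcripts, and the coding share reaches 50% from Polr2f downwards.

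Similar sequence elsewhere in the genome was searched for as well. A stretch of at least 200 bases at 95% identity or more in another gene was found for 13 genes, and in 11 of these every copy read under 5 TPM. The exceptions were Taf9 with Ak6 and Polr2l, which shares 204 bases at 99.5% identity with the pseudogene Gm10774 at 63.5 and 55.5 TPM. Overlap with another annotated gene was found for 39 of the 67 genes, on the same strand for 14. Neither copies nor overlaps were counted over all protein-coding genes, so no difference from genes at large is shown. The doubt over strand given for Tbp and Taf10 applies to others overlapped on the opposite strand. Polr2i, for example, is overlapped over 325 bases by Tbcb, at 200 and 192 TPM. Shared exonic bases were counted for Tbp and Taf10 alone.

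The pools gave nearly equal levels. Log2 ratios of normalised counts, pool 1 over pool 2, had a median of 0.04 over the 65 detected genes, with 45 (69.2%) higher in pool 1. Over 13190 protein-coding genes the median was 0.02 and 56.6% were higher in pool 1. Scaled by library totals, 33 of the 65 were higher in pool 1. No gene of the set differed by over 1.5-fold, against 1.06% of protein-coding genes past it in the direction of pool 1 and 2.14% in that of pool 2. For 2-fold the shares at large were 0.197% and 0.47%. The median CV of TPM was 3.47% in the set and 4.89% in detected protein-coding genes. The set had the higher median level, and genes of like level were not compared. Scaled by the ERCC spike-ins, synthetic RNAs added to each library, the median was -0.13 and 6 of 65 genes were higher in pool 1, and the median of all protein-coding genes moved to -0.15. Such a change of scaling shifts every gene alike.

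At the pool 1 end lay Med18 (log2 ratio 0.29, with an exact 95% binomial interval of 0.12 to 0.46), Med1 (0.28), Polr2a (0.22), Med14 (0.21) and Taf2 (0.19). At the pool 2 end lay Taf1d (-0.39), Taf15 (-0.26), Taf10 (-0.20), Taf1a (-0.16) and Taf9 (-0.15). The intervals cover counting error only. The ratios are of counts and are not corrected for differences in estimated length between the pools. In TPM, Taf1d had 51.0 in pool 1 and 58.6 in pool 2, and Taf15 had 11.5 and 15.6. By TPM, Taf15 therefore lay further from equality than Taf1d. The deposited interval bounds of TPM lay apart, with pool 1 higher, in 6 of 65 genes (Med18, Med1, Med14, Polr2a, Polr2b and Taf6l), against 6.44% of protein-coding genes. With pool 2 higher they lay apart in 3 (Polr2l, Taf10 and Taf15), against 6.5%. The summed levels of erythroid and mesenchymal markers differed between the pools too, and so did some regional markers. Dlx1 had 234 and 162 TPM and Dlx2 104 and 67.2 TPM in pool 1 and pool 2, with log2 ratios of 0.53 and 0.67, and Gata3 was lower in pool 1 (-1.68). Their part in the ratios of the set was not tested.

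Both the level and the ratio between the pools varied with the effective length, the number of positions at which a fragment can start. Over the 65 detected genes Pearson's r of log length with log2 mean TPM was -0.65 (Spearman's rho -0.64), against -0.24 over 13190 protein-coding genes. The relation was present within each complex, with r of -0.60 in RNA polymerase II (n = 13), -0.68 in Mediator (n = 30) and -0.64 in TFIID (n = 15). These correlations are across genes of the same libraries, and genes are not independent replicates. TPM is already divided by length, so the length enters both axes.

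Of the 17 genes over 3000 bases, 15 were higher in pool 1 and the median log2 ratio was 0.13, and the other 2 were Taf4 (-0.14) and Taf5 (-0.07). Among protein-coding genes of that length 63.3% were higher in pool 1, with a median of 0.05. Of the 14 genes under 1000 bases, 9 were higher in pool 1, with a median of 0.01, against 41.1% and -0.02 for protein-coding genes of that length. The length classes were chosen after the values were seen. The numbers higher in pool 1 hold for the normalisation used here, and with spike-in scaling 6 of all 65 genes were higher in pool 1. Length and ratio had r of 0.39 in the set and 0.11 over protein-coding genes.

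**Figure D4:**
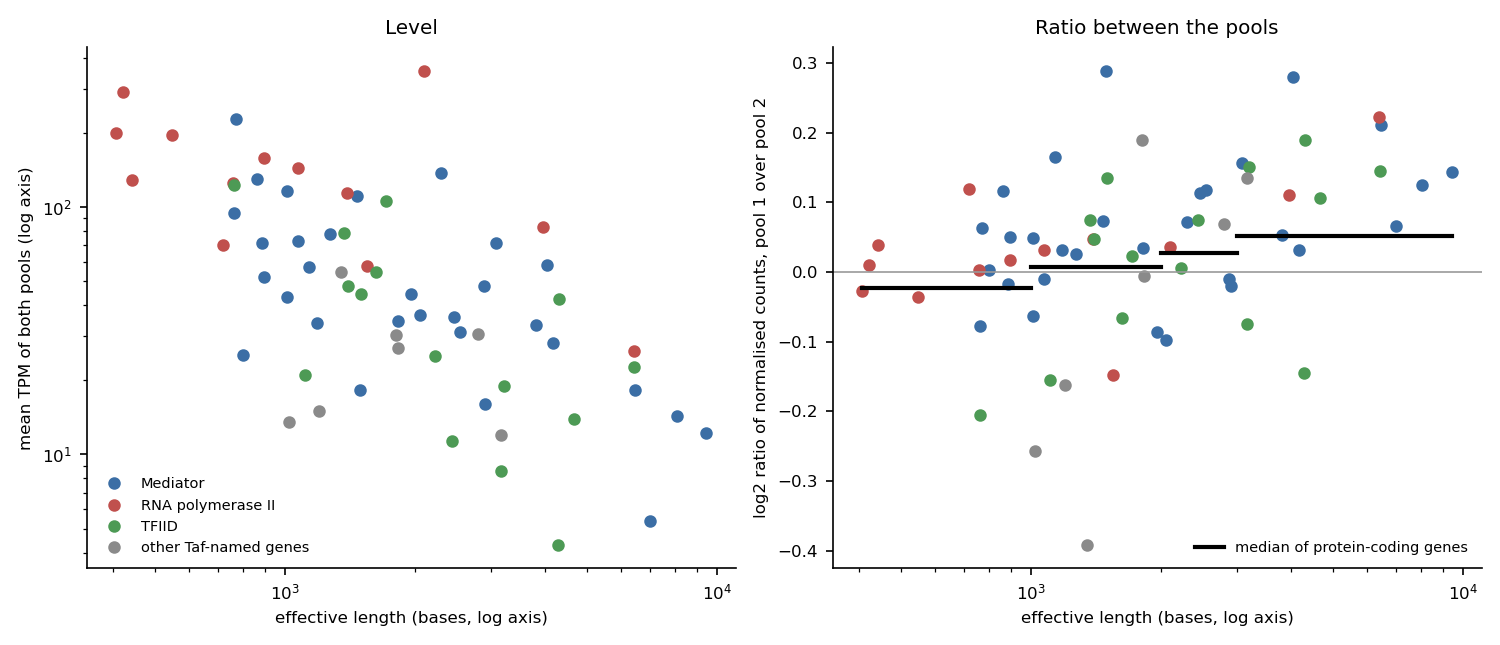
Effective length (x axis, bases, log) against mean TPM (left, log axis) and against the log2 ratio of normalised counts, pool 1 over pool 2 (right), for the 65 detected genes, coloured by complex. Black bars give the median of all protein-coding genes in 4 length classes. Long genes lie lower on the left, and with this normalisation 15 of 17 over 3000 bases lie above 0 on the right.

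Quantified against the older GENCODE M4, all 67 genes were present. The log2 ratio of M21 over M4 had a median of -0.07 in the set and -0.07 in protein-coding genes. Of 65 detected genes, 4 were over 1.5-fold higher in M21, against 5.23% of protein-coding genes, and 1 was over 1.5-fold lower, against 0.963%.

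Polr2l had 57.9 TPM in M21 and 30.5 TPM in M4, and Taf1d 54.8 and 33.1 TPM, with pool 1 counts 2.02-fold those in M4 for each. Med17 had 36.6 TPM in M21 and 20.6 TPM in M4, although its pool 1 counts differed by 1.01-fold only. In M21 the short transcripts Med17-203 and Med17-204 took 31.9% and 24.5% of its TPM. Med15 had 35.9 and 22.9 TPM. Taf6l had 30.3 TPM in M21 and 58.4 TPM in M4, so its log2 ratio to Taf6 was -1.80 in M21 and -0.93 in M4. With M4 the medians of the complexes were 136 TPM for RNA polymerase II, 46.3 TPM for Mediator and 21.6 TPM for TFIID.

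The promoters of these genes were compared by letters alone, because TBP, itself one of them, is known to bind TATA boxes. RefSeq windows of GRCm38.p6, from 250 bases before to 50 bases after the start, were present for 57 of the 67 genes, in 70 windows. TATAAA on the gene's strand, beginning 40 to 16 bases before the start, was found in 2 of 70 windows (2.86%), against 1.99% of all windows and 2.53% of those of protein-coding genes. These were Polr2a, at 33 bases before the start, and Taf13, at 32. Anywhere in the window on either strand TATAAA was present in 14.3% of windows, against 13.6% of all. GGGCGG, the core of a GC box, was present on either strand in 67.1%, against 35.7% of all windows and 46.2% of those of protein-coding genes. CCAAT on either strand was present in 35.7%, against 37.4% of all. The median number of CG in a window was 20, against 7 over all windows and 13 over those of protein-coding genes. Both comparison sets include genes not detected here. Shares over detected genes alone were not computed, so no difference from expressed genes at large is shown. The 60 bases before the start are shown for the genes with TATAAA at that place and for Tbp, which has none there, with TATAAA in capitals. They lie at chr11:69758634-69758693 on the minus strand (Polr2a), chr3:108571639-108571698 on the plus strand (Taf13) and chr17:15499828-15499887 on the plus strand (Tbp).
Polr2a: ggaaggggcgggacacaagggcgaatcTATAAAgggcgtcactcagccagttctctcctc
Taf13: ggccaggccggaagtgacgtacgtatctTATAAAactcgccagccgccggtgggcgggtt
Tbp: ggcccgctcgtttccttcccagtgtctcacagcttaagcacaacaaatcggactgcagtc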

How the data were processed

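PolyA RNA of 2 forebrain pools was analysed, prepared with oligo-dT priming, full-length cDNA amplification and tagmentation, with ERCC spike-ins, per the labels' protocols. Raw expected counts, the authors' estimates of reads assigned to each gene or transcript, were deposited. The deposited TPM values are scaled to 1e6 per library, per the file headers. The deposited FPKM values, used only among the alternatives below, are per kilobase and 1e6 reads. Posterior means of TPM with lower and upper bounds were also deposited, and were handled as a score. For these the interval level is not given in the sources used here, nor are aligner, quantifier and use of strand. The column names follow the RSEM layout.

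Detection means a TPM of at least 1 in both pools. Ratios between the pools used rounded expected counts over all genes with TMM normalisation (edgeR 4.0.16, prior count 1), checked on simulated data. Alternatives were DESeq2 1.42.0 size factors, spike-in and library totals, other pseudocounts and filters, GENCODE M4, posterior means, coding transcripts alone and each pool alone. Numbered entries that name no gene, 5.74e-05% and 9.00e-05% of counts in pool 1 and pool 2, were left out. Gene identity came from GENCODE M21 (all 55536 IDs matched; 42462 of 43346 in M4). Copies were searched with BLAST 2.17.0 from transcripts of at least 10% of a gene's TPM. Python 3.11.15 (pandas 2.3.3, numpy 2.4.6, scipy 1.17.1, matplotlib 3.10.9) and R 4.3.3 ran the rest.

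The members and lists were chosen with earlier results of these data known. Any member could be named. Of other lists with 10 or fewer members any gene could be named, and of longer ones the 3 highest, the 2 lowest and any undetected. Also named could be each detected member's highest transcript, any other of at least 20% of its gene's TPM, and the 5 members at each end of the pool ratio. Amino acid sequences were not used here.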

Additional observations from a re-analysis of the deposited data

How the results depend on the processing

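Of 90 values recomputed under other settings, 64 stayed within 1 SD or counting interval or, for counts, within 1.5 times, 24 moved further and 2 changed sign. Some of the 64 could not have moved, so their number overstates stability. A paralogue ratio from either pool alone always lies within 1 SD of the mean of the 2 pools. FPKM scaled to the total of TPM restates TPM. Leaving out genes averaging under 1 TPM removed none from Mediator or RNA polymerase II. The median log2 ratio between the pools was judged against 0.0936, the median half-width of the counting interval of a single gene. That is not the spread of a median over 65 genes. The median of Mediator was 46.3 TPM with the M4 tables, 42.7 TPM with posterior means and 40.4 TPM over coding transcripts alone. That of RNA polymerase II was 136, 125 and 117 TPM under the same settings. For TFIID the median was 21.6 TPM with M4, 13.9 TPM over coding transcripts, 25.0 TPM when genes averaging under 1 TPM were left out, and 22.98 to 23.11 TPM without replicate 1 or 2. Spike-in scaling gave a median log2 ratio between the pools of -0.13. Of 65 genes 45 were higher in pool 1 with TMM, 41 with DESeq2 size factors and 33 with library totals. Without the filter on low genes 1 gene (Taf7l) passed 1.5-fold. Med13l over Med13 was -0.053 with M4. Of 43 alternatives for paralogue ratios 42 kept their sign and 12 moved, and the 43 include each pool alone, which could not move. With Taf9 and Ak6 added together, a setting chosen after seeing the data, Taf9b over Taf9 was -4.54. The causes were not tested. No paired analysis was possible because there is 1 group. With 2 pools the SD is imprecise, and Taf7l (0 counts in pool 1 and 1 in pool 2) is limited by depth.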
